A study of Homo sapiens with 4 samples.

Results

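The ELR-type CXC chemokines of human chromosome 4, CXCL1, CXCL2, CXCL3, CXCL5, CXCL6, CXCL8 and PPBP, and their receptors CXCR1 and CXCR2 were described in the human glioma line U87 after knockdown of PTPRN. These 9 genes, 7 ligands and 2 receptors, were taken by symbol from the 19314 genes of the expression table. Each is a single row of the table. The group was selected on its FPKM values in the PTP2 and SCR libraries, so these values are given as a description, without a test, and the count of members called supports nothing. RNA was sequenced in 4 libraries. The 2 PTP2 libraries are labelled as PTPRN knockdown, and the 2 SCR libraries are the controls of the same line. By the study's methods both groups carry a hairpin in the pLKO.1 vector, against PTPRN or with no human target. A single knockdown label is present, so an effect of PTPRN and any other effect of that hairpin cannot be told apart. The labels do not say whether replicates came from separate cultures, so the spread and the p-values measure the difference between these libraries only, which may be technical.

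The ELR chemokines carry a glutamate-leucine-arginine motif before their first cysteine and are known for drawing neutrophils through the receptors CXCR1 and CXCR2. Their genes arose by duplication and sit together in a cluster. They are held low in resting cells and are known to be induced by interleukin-1 and tumour necrosis factor, through NF-kappa B bound close to the transcript start, and their messages are short-lived because AU-rich elements in the 3′ part recruit decay factors. In glioma, CXCL8 is known as an angiogenic factor.

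The site that these promoters share is shown first, because the ligands are compared with it throughout. RefSeq (GRCh38.p14) gives a promoter window of 250 bases before to 50 bases after the start for all 9 genes. The NF-kappa B core GGANTTTCC was found on either strand in 6 of the 7 ligand windows and in 1.64% of 35116 windows of all genes. The 30 bases around each match follow, read 5′ to 3′ on the strand of the gene, with the core in capitals.
CXCL1: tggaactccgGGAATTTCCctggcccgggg
CXCL2: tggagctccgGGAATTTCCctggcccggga
CXCL3: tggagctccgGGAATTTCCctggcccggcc
CXCL5: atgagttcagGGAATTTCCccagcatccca
CXCL6: ctgagttcagGGAATTTCCccagcatccca
CXCL8: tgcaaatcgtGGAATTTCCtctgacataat

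These stretches lie on chromosome 4 at chr4:73869305-73869334 (CXCL1, plus strand), chr4:74099253-74099282 (CXCL2, minus), chr4:74038748-74038777 (CXCL3, minus), chr4:73998748-73998777 (CXCL5, minus), chr4:73836579-73836608 (CXCL6, plus) and chr4:73740468-73740497 (CXCL8, plus). All 6 cores read the same 9 letters, and they began 77 to 91 bases before the RefSeq start. The flanks fall into families. CXCL1 and CXCL2 had the same base at 28 of the 30 positions, CXCL2 and CXCL3 also at 28, and CXCL5 and CXCL6 at 29. CXCL8 shared 14 to 17 positions with the others. PPBP held no match to the core. A match is a description of letters and not of a bound site. CXCL1, CXCL2 and CXCL3 are close copies, as are CXCL5 and CXCL6, so their matches do not count separately.

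The expression table starts some of these genes earlier than RefSeq does, by 85 bases for CXCL2, 84 for CXCL3, 122 for CXCL6, 63 for CXCL8 and 52 for CXCL5. On the table's own starts the core therefore lies within the transcript of CXCL2, CXCL3 and CXCL6.

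Other motifs separated the promoters further. CXCL8 was the only ligand with the AP-1 site TGANTCA, which was present in 7.71% of all windows and is read by FOS and JUN proteins. CXCL8 and PPBP held the TATA box TATAAA at the same distance, 31 to 26 bases before the start, against 11.5% of all windows. These 3 stretches are shown with the motif in capitals.
CXCL8 AP-1: aggaagtgtgaTGACTCAggtttgccctga
CXCL8 TATA: gtagggtgatgaTATAAAaagccaccggag
PPBP TATA: tgagaaagagcaTATAAAtgacatcttcag

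They lie at chr4:73740421-73740450, chr4:73740526-73740555 and chr4:73988204-73988233. The C/EBP motif TTNCNNAA was found in CXCL2 and PPBP (36.8% of all windows) and the GC box GGGCGG in CXCL1, CXCL3 and CXCL6 (45.0%). The longer kappa B consensus, which overlaps the core, was found in 5 ligands, all those with the core except CXCL8, and in 11.3% of all windows. Restricting the search to the strand of the gene left every ligand count as it was.

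**Figure D1:**
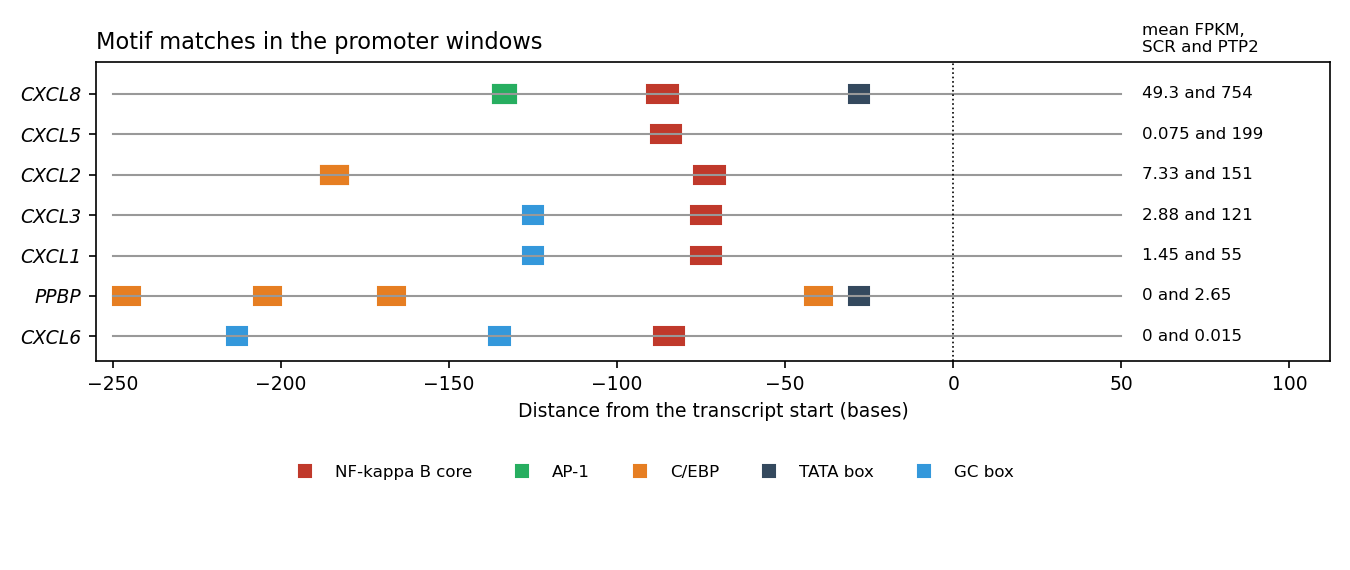
Motif matches on either strand in the RefSeq promoter windows of the 7 ligands, by distance from the transcript start in bases, with the mean FPKM of the SCR and PTP2 libraries (n = 2 each) at the right. The NF-kappa B core lies 69 to 91 bases before the start in every ligand but PPBP, whether the gene is read at 754 FPKM (CXCL8) or at 0.015 FPKM (CXCL6) in the PTP2 libraries.

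The values are FPKM, sequenced fragments corrected for the length of the transcript and the depth of the library, so levels of genes of unequal length may be compared. Depth was estimated from the steps of low values at 18200000 to 19900000 reads per library. PTPRN was listed at 12.09 and 11.68 FPKM in the PTP2 libraries and at 84.84 and 85.02 FPKM in the SCR libraries (log2 difference -2.74, SE 0.0326, adjusted p = 1.5e-04, limma). Log2 differences throughout are of log2(FPKM + 1), PTP2 minus SCR, which understates the change of low genes. A gene was called when it differed 2 times or more on this scale with a limma adjusted p of at most 0.001. By this rule 2.63% of the 16595 genes with a value were higher and 4.06% lower, and 30.8% and 27.1% were higher and lower at an adjusted p of at most 0.05 with no minimum fold. The stricter call needs all 4 libraries. Without PTP2 replicate 1, PTP2 replicate 2, SCR replicate 1 or SCR replicate 2, no gene passed it (limma, lowest adjusted p 0.0199 to 0.0215), while 8760 to 8889 genes had an unadjusted p under 0.05. This holds for every count of calls given here, and all 27 called genes of the lists below kept their direction and an adjusted p of at most 0.05 in each of these fits.

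Of the 9 genes, 8 had a value and 6 reached 1 FPKM in a library, namely CXCL8, CXCL5, CXCL2, CXCL3, CXCL1 and PPBP. These 6 were higher in both PTP2 libraries than in both SCR libraries, an order found in 39.7% of all genes, and were also the 6 called higher. CXCL6 and CXCR2 were not called, and CXCR1 had no value. Summed over the 7 ligands, the level was 1283 ± 9.40 FPKM (SD, n = 2) in the PTP2 libraries and 61.0 ± 0.431 FPKM in the SCR libraries, a ratio of 21.0. The ligands took 0.291% of all FPKM in the first and 0.0145% in the second. In bulk RNA, more cells with these transcripts and more transcripts per cell cannot be told apart.

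**Figure D2:**
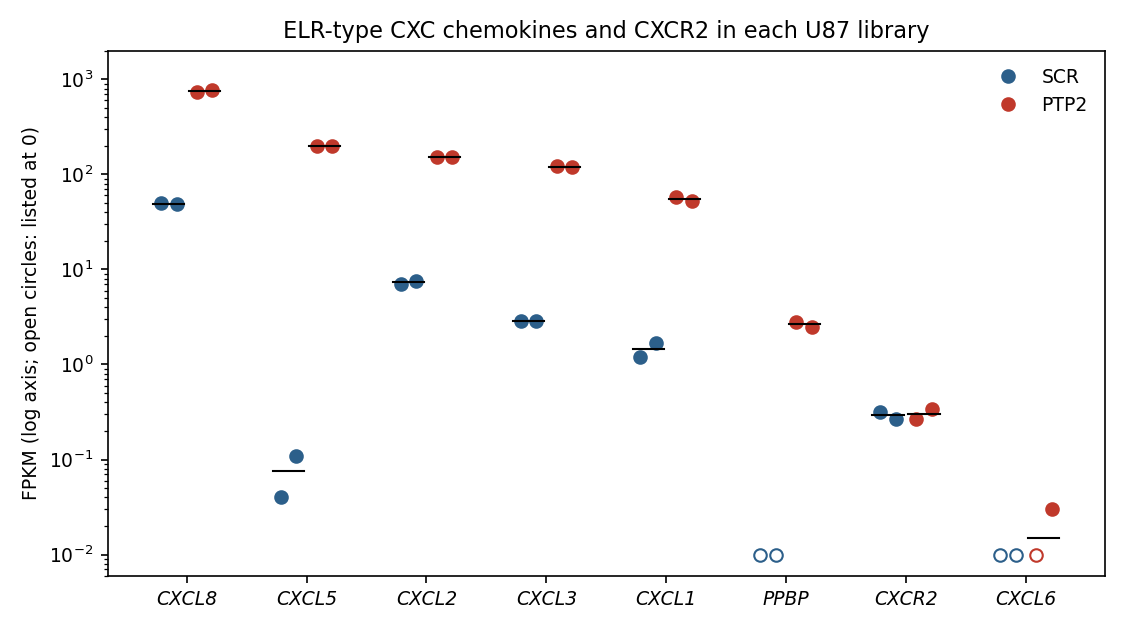
FPKM of the 7 ligands and CXCR2 in each library on a log axis, with SCR libraries in blue, PTP2 libraries in red and group means as bars (n = 2). Open circles at the bottom are values listed at 0, CXCR1 has no value, and CXCL8, CXCL5, CXCL2, CXCL3, CXCL1 and PPBP sit apart between the groups while CXCR2 overlaps.

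CXCL8, interleukin-8, binds both receptors and was the most abundant member in every library. It lies on the plus strand at chr4:73740506-73743716 in the table. Its level was 743.53 and 764.60 FPKM in the PTP2 libraries and 49.57 and 49.03 FPKM in the SCR libraries. The replicates lay close together and the groups far apart, by a log2 difference of 3.91 (SE 0.0321). The ratio of means was 15.3, and it was 15.0 to 15.6 over the pairs of libraries. About 1634 and 1478 reads stood behind the SCR values. CXCL8 ranked 67 among all genes by mean level in the PTP2 libraries and 1545 in the SCR libraries. It had the smallest log2 difference of the 5 ligands above 50 FPKM and was already the highest ligand in the SCR libraries.

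CXCL5, also called ENA-78, acts through CXCR2. It lies on the minus strand at chr4:73995642-73998729. It was listed at 197.85 and 199.82 FPKM in the PTP2 libraries, and at 0.04 and 0.11 FPKM in the SCR libraries. In the SCR libraries these values stand for about 2 and 5 reads, against about 8831 and 8919 reads in the PTP2 libraries. The log2 difference was 7.54 (SE 0.0446), and 10.18 with a pseudocount of 0.1. The ratio of means was 2651, and it was 1799 to 4996 over the pairs of libraries. It rests on these few SCR reads, so its size is uncertain. CXCL5 thus went from close to no reads, rank 14080 of all genes, to rank 321, and moved from the fifth to the second place among the ligands.

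The next 3 ligands, CXCL1, CXCL2 and CXCL3, are the GRO chemokines, close copies of each other that signal through CXCR2. CXCL2 lies at chr4:74097035-74099280 on the minus strand and had 151.45 and 151.17 FPKM in the PTP2 libraries against 7.01 and 7.64 FPKM in the SCR libraries. This is a log2 difference of 4.19 (SE 0.0488) and a ratio of means of 20.7, with 19.8 to 21.6 over the pairs of libraries. The PTP2 values lay closer together than the SCR values. CXCL3 lies at chr4:74036146-74038773 on the minus strand and had 122.84 and 118.51 FPKM against 2.90 and 2.87 FPKM. Its log2 difference was 4.97 (SE 0.0339) and its ratio 41.8, with 40.9 to 42.8 over the pairs. CXCL1, at chr4:73869392-73871302 on the plus strand, was the lowest of the 3 in both groups. It had 57.46 and 52.64 FPKM in the PTP2 libraries and 1.21 and 1.69 FPKM in the SCR libraries. About 27 and 34 reads stood behind the SCR values of CXCL1, and its replicates differed most, so its ratio of 38.0 ran from 31.1 to 47.5 over the pairs (log2 difference 4.52, SE 0.117).

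The separate values of the GRO genes are uncertain, since reads of 50 bases can fit more than 1 copy. The coding sequences of CXCL1 and CXCL2 were 93.5% identical, those of CXCL1 and CXCL3 90.8% and those of CXCL2 and CXCL3 94.4%. Of all runs of 50 bases in the annotated transcript (GENCODE 29), 5.73% of CXCL1, 9.24% of CXCL2 and 5.26% of CXCL3 occurred without a mismatch in another gene. With up to 2 mismatches, 33.3% of the runs of CXCL1 were found in CXCL2. How the authors assigned such reads is not given in the sources used here. CXCL8, CXCL6 and PPBP shared no run exactly with another gene. Of the runs of CXCL5, 1.12% occurred exactly in GLYR1. Whether such reads are among the few SCR reads of CXCL5 was not tested.

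PPBP gives platelet basic protein, the precursor of neutrophil-activating peptide, and is known chiefly from megakaryocytes and platelets. It lies at chr4:73986439-73988190 on the minus strand, next to CXCL5. It was listed at 2.82 and 2.48 FPKM in the PTP2 libraries, about 65 and 57 reads, and at 0 in both SCR libraries. No ratio is given against a group listed at 0. Its log2 difference was 1.87 (SE 0.0567), the smallest of the 6 genes called higher, and was 4.78 with a pseudocount of 0.1. Its neighbour PF4, platelet factor 4, another platelet chemokine, was listed at 0 and 0.07 FPKM in the PTP2 libraries and at 0 in both SCR libraries. So the platelet pair differed, with PPBP read in both PTP2 libraries and PF4 close to 0 in all 4.

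CXCL6, or GCP-2, binds both receptors and is the closest copy of CXCL5. It lies at chr4:73836556-73838760 on the plus strand. It was listed at 0 and 0.03 FPKM in the PTP2 libraries and at 0 in both SCR libraries, where 1 read is worth about 0.031 to 0.034 FPKM. A single read was therefore behind the only value above 0, and no difference was detectable at this depth. CXCL6 stood apart from its copy although the coding sequences of the pair were 87.5% identical. The 250 bases before their starts were 85.3% identical, and the stretches around the NF-kappa B core differed at 1 base of the 30. In the PTP2 libraries the means were 199 ± 1.39 FPKM for CXCL5 and 0.015 ± 0.0212 FPKM for CXCL6. No run of 50 bases was shared exactly by the pair, and 2.25% of those of CXCL5 were found in CXCL6 with up to 2 mismatches.

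The receptor values were low or missing. CXCR2, the common receptor of the ELR chemokines, lies on chromosome 2 at chr2:218125290-218137253. It had 0.27 and 0.34 FPKM in the PTP2 libraries and 0.32 and 0.27 FPKM in the SCR libraries, about 14 to 18 reads each. The groups overlapped, with a log2 difference of 0.01 (SE 0.0447). CXCR1, the second receptor, at chr2:218162845-218166993, has no value in any library, as do 2719 genes of the table. The receptor pair also shares sequence, with 4.42% of the runs of CXCR2 found exactly in the annotated transcript of CXCR1. Over all annotated transcripts, 7.17% of the runs of CXCR2 occurred in CXCR1 or CXCR2P1.

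The make-up of the ligand transcripts differed along with their sum. CXCL8 made up 81.6% and 79.9% of the summed ligand FPKM in the SCR libraries and 58.3% and 59.3% in the PTP2 libraries. CXCL5 took 15.5% in both PTP2 libraries, against 0.0659% and 0.179% in the SCR libraries. The share of CXCL2 was close in both groups, with 11.5% and 12.5% in the SCR libraries and 11.9% and 11.7% in the PTP2 libraries. CXCL3 went from a mean of 4.73% to 9.41% and CXCL1 from 2.37% to 4.29%. The order of the ligands in the SCR libraries was CXCL8, CXCL2, CXCL3, CXCL1 and CXCL5, and in the PTP2 libraries CXCL8, CXCL5, CXCL2, CXCL3, CXCL1 and PPBP. No neighbours in either order overlapped between libraries. The narrowest steps in the PTP2 libraries were from CXCL5 to CXCL2, with a ratio of means of 1.31, and from CXCL2 to CXCL3, with 1.25.

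**Figure D3:**
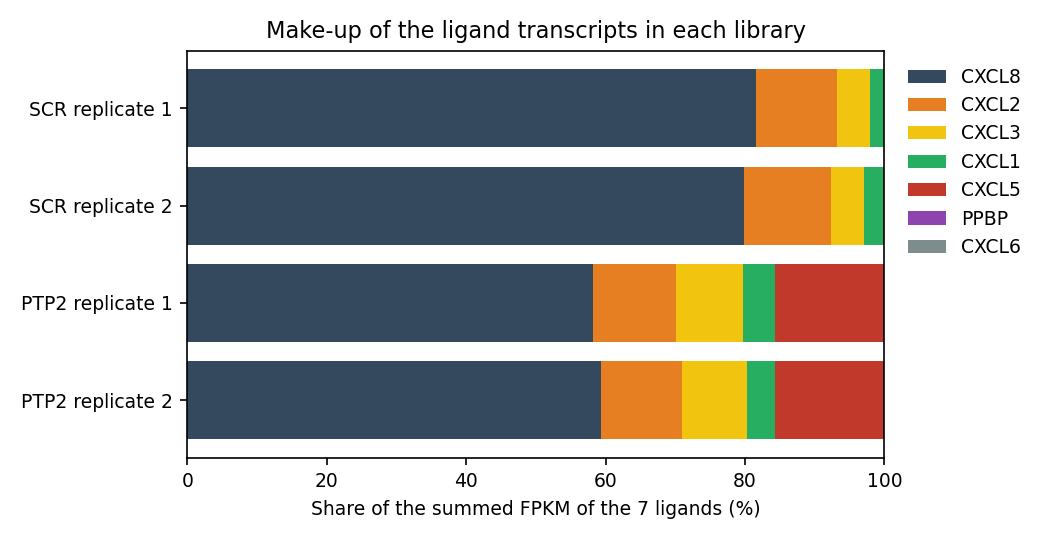
Share of each ligand in the summed FPKM of the 7 ligands in each library, in percent. CXCL8 holds 81.6% and 79.9% in the SCR libraries and 58.3% and 59.3% in the PTP2 libraries, while CXCL5 takes 15.5% of the sum in both PTP2 libraries.

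By position, the 7 ligands span 358.775 kb of chromosome 4, from 73740506 to 74099280, with 3 genes on the plus strand and 4 on the minus strand. Members with high and low values were interleaved along it. CXCL6 lies between CXCL8 and CXCL1, and PF4 lies beside PPBP and CXCL5. Within 1 megabase on either side the table lists 14 other genes, of which 12 had a value. Of these 12 genes, 2 were called higher, EREG and MTHFD2L, and 0 lower, against 2.63% and 4.06% of all genes. The median log2 difference of the 12 was -0.01, against 0.01 over all genes. At a limma adjusted p of at most 0.05, 3 were higher and 2 lower, against 30.8% and 27.1% of all genes. EREG and MTHFD2L lie beyond CXCL2 on the same side. EREG, epiregulin, a ligand of the EGF receptor, lies 266 kb from the nearest member and had 413.93 and 420.76 FPKM in the PTP2 libraries and 84.93 and 86.99 FPKM in the SCR libraries (log2 difference 2.27, SE 0.0318, limma adjusted p = 1.5e-04). MTHFD2L, a mitochondrial enzyme of folate metabolism, had 9.73 and 9.02 FPKM against 2.99 and 3.17 FPKM at 58.8 kb (log2 difference 1.35, SE 0.0513, adjusted p = 4.4e-04). Other EGF-type ligands beside EREG were low in all libraries. AREG was listed at 0.04 and 0.13 FPKM against 0 in both SCR libraries, and BTC at 0.62 and 0.68 FPKM against 0.71 and 0.81 FPKM.

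**Figure D4:**
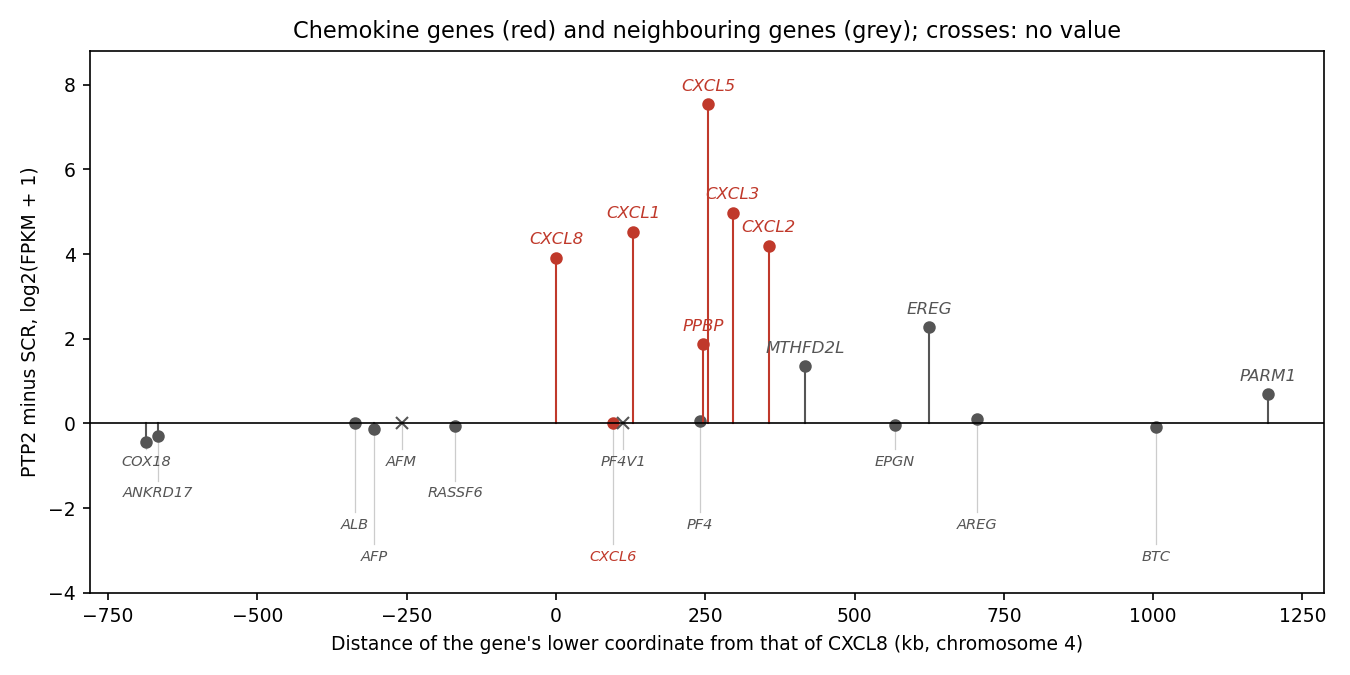
PTP2 minus SCR difference of log2(FPKM + 1) for the chemokine genes (red) and the other genes within 1 megabase (grey), by distance in kb of the gene's lower coordinate from that of CXCL8. CXCL5 stands at 7.54, CXCL6 and PF4 lie near 0 within the cluster, EREG and MTHFD2L stand at 2.27 and 1.35, and crosses mark AFM and PF4V1, which have no value.

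The annotated 3′ parts of the ligand transcripts were rich in the pentamer ATTTA, the core of AU-rich elements. After the coding part, CXCL2 held 10 copies (13.9 per kb), CXCL3 7 (10.4 per kb), CXCL8 9 (7.19 per kb) and CXCL1 5 (7.08 per kb). The longer CXCL5 held 11 (5.51 per kb), CXCL6 6 (5.36 per kb) and PPBP 1 (4.27 per kb). The median over 16568 genes with at least 200 bases there was 2 copies and 1.74 per kb. CXCL2 was denser than 99.8% of these genes, CXCL3 than 99.4%, and CXCL6, which was close to 0 in all libraries, than 93.1%. The receptors were not dense, with 2 copies in CXCR2 (1.46 per kb) and 0 in CXCR1. ATTTA density did not follow the order of the log2 differences, which CXCL5 led. A role of message decay in the ligand levels was not tested. For PPBP the annotated transcript has 715 bases and the table's 1307, so its count covers only part of the table's transcript.

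Genes that act before, with and after the ligands were read from lists chosen with earlier results of these data known. Counts from these lists beside the shares of all genes are therefore a description and not a test. Over all genes with a value, 2.63% were called higher and 4.06% lower. At an adjusted p of at most 0.05 with no minimum fold, 30.8% were higher and 27.1% lower. Among the inducing cytokines and their signalling, 2 of 21 tested genes were called higher, both interleukin-1 genes. IL1B had 2816.81 and 2782.29 FPKM in the PTP2 libraries and 43.53 and 42.79 FPKM in the SCR libraries (log2 difference 5.99, SE 0.0300, limma adjusted p = 6.9e-05). IL1A had 17.22 and 16.87 FPKM against 1.89 and 1.87 FPKM (2.65, SE 0.0299, adjusted p = 1.5e-04). The other classical inducer, TNF, which is outside the naming rule and was chosen after its values were seen, had 0.10 and 0.37 FPKM against 1.32 and 1.16 FPKM and was not called (-0.87, SE 0.125, adjusted p = 0.0077). The median log2 difference of the list was 0.02. Both genes called within this list were ligands of the interleukin-1 receptor. The chains of that receptor, IL1R1 and IL1RAP, were named after their values were seen. IL1R1 had 16.64 and 17.59 FPKM against 26.66 and 27.29 FPKM, and IL1RAP 3.06 and 3.07 FPKM against 3.82 and 4.44 FPKM. Neither was called (-0.63 and -0.33). At an adjusted p of at most 0.05, 9 genes of the list were higher and 8 lower. A role of interleukin-1 in the ligand levels was not tested.

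Among 20 transcription factors known to bind such promoters, 4 were called higher and 1 lower, with a median of 0.22. At an adjusted p of at most 0.05, 11 of them were higher and 7 lower. FOSL1, an AP-1 subunit, had 566.46 and 583.54 FPKM in the PTP2 libraries against 116.61 and 114.53 FPKM (2.30, SE 0.0334, limma adjusted p = 1.5e-04). The AP-1 and stress factor ATF3 (1.54), the NF-kappa B precursor NFKB2 (1.39) and the AP-1 subunit FOSB (1.31) were also called higher. FOSB was named after its values were seen, and its call was lost with a pseudocount of 0.1 and an eBayes trend together. The other AP-1 and NF-kappa B genes of the list, also named after their values were seen, were not called and went both ways. RELB (0.95), JUNB (0.94), FOS (0.64), NFKBIZ (0.53) and RELA (0.25) were higher. FOSL2 (-0.66), BCL3 (-0.51), NFKB1 (-0.48), JUND (-0.25) and REL (-0.18) were lower. JUN differed by -0.03 (limma adjusted p = 0.62). HIF1A, the hypoxia factor, fell by 1.34 on the log2 scale from 391.68 and 406.02 FPKM to 156.11 and 156.83 FPKM (SE 0.0338, adjusted p = 2.8e-04). Of the 8 NF-kappa B feedback inhibitors, some of them known targets of the factor, 2 were called higher. They were BIRC3 (2.29, from 0.19 and 0.15 to 4.77 and 4.66 FPKM) and NFKBIE (1.07). The median of this list was 0.66, and 6 of the 8 were higher at an adjusted p of at most 0.05, against 30.8% of all genes. TNIP1, the most abundant, had 139.43 and 139.62 FPKM against 100.04 and 101.08 FPKM (0.47), below the fold of 2. NFKBIA and CYLD, named after their values were seen, were not called. NFKBIA had 109.73 and 111.11 FPKM against 108.89 and 106.60 FPKM (0.04, limma adjusted p = 0.41). CYLD had 16.81 and 17.64 FPKM against 18.24 and 18.66 FPKM (-0.09). Of 15 genes of AU-rich decay, ZC3H12C, a relative of the nuclease regnase-1, was called higher (1.03), with a list median of 0.01, and the decay factor ZFP36L1 had 148.32 and 152.62 FPKM against 161.10 and 160.60 FPKM (-0.10, adjusted p = 0.071). The ZC3H12C call was lost with median-ratio scaling of the libraries. Of the decay genes, 3 were higher and 4 lower at an adjusted p of at most 0.05.

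The other chemokines of the CXC family were low or had no value. Of 10 other CXC chemokines, 6 had a value, none reached 1 FPKM, and limma called 0, with 1 at an unadjusted p under 0.05. PF4V1, CXCL9, CXCL10 and CXCL13 had no value. CXCL16, the most abundant, had 0.37 and 0.50 FPKM against 0.26 and 0.29 FPKM. Among 8 other CXC and atypical receptors, CXCR4 had no value, 7 were tested, and 0 were called by limma, with 2 at an unadjusted p under 0.05. ACKR2, the most abundant, had 0.32 and 0.36 FPKM against 0.25 and 0.34 FPKM. Of 15 tested genes of CXCR2 signalling, PREX1, an exchange factor for RAC, was called higher with 18.91 and 19.66 FPKM against 5.88 and 5.87 FPKM (1.56, SE 0.0341, limma adjusted p = 2.4e-04). The G protein subunit GNAI2 had 291.17 and 285.61 FPKM against 311.25 and 296.96 FPKM and was not called (-0.08, limma adjusted p = 0.18). Of the 15 genes of CXCR2 signalling, 7 were higher and 1 lower at an adjusted p of at most 0.05.

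Proteases that act on chemokines were called in both directions, and carriers of chemokines in 1. Of 14 tested proteases known to trim chemokines, 2 were called higher and 4 lower. At an adjusted p of at most 0.05, 4 of them were higher and 8 lower. MMP1, the interstitial collagenase, had 33.36 and 30.25 FPKM in the PTP2 libraries against 0.79 and 0.69 FPKM (4.24, SE 0.0650, limma adjusted p = 1.6e-04), and MMP12, the macrophage elastase, 7.02 and 6.86 FPKM against 0.08 and 0.03 FPKM (2.91). MMP2, a gelatinase, fell from 1067.45 and 1067.53 FPKM to 319.81 and 313.82 FPKM (-1.75, SE 0.0296, adjusted p = 1.7e-04). The exopeptidases FAP (-1.35), ANPEP (-1.29) and DPP4 (-1.17) were also called lower, of which ANPEP and DPP4 were named after their values were seen. Heparan sulfate proteoglycans hold chemokines at the cell surface. The list holds 13 genes of glycosaminoglycan carriers, their enzymes and chemokine-binding proteins. Of these, 4 were called lower and 0 higher, against 4.06% and 2.63% of all genes. At an adjusted p of at most 0.05, 11 were lower, against 27.1% of all genes. The median was -0.82. HSPG2, perlecan, fell from 18.08 and 17.97 FPKM to 1.99 and 1.77 FPKM (-2.72, SE 0.0492, adjusted p = 1.9e-04). The syndecans SDC3 (-2.15) and SDC2 (-2.06) and the glypican GPC1 (-1.33) were the other three. SDC4, the most abundant over the 4 libraries, had 58.64 and 56.83 FPKM against 75.43 and 74.80 FPKM (-0.37) and was not called. TNFAIP6, a chemokine-binding protein named after its values were seen, was on the other side. It had 3.84 and 3.13 FPKM against 2.88 and 2.77 FPKM (0.23) and was not called.

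Of 16 tested genes of neutrophil recruitment outside the CXC family, 4 were called higher, with a list median of 0.39. At an adjusted p of at most 0.05, 10 of them were higher and 2 lower. CSF3, the granulocyte colony-stimulating factor, had 1286.34 and 1319.59 FPKM in the PTP2 libraries against 224.48 and 216.74 FPKM (2.56, SE 0.0361, limma adjusted p = 1.5e-04). IL6, a cytokine of the acute response, had 29.61 and 26.60 FPKM against 4.46 and 3.49 FPKM (2.55, SE 0.120, adjusted p = 5.9e-04). ANXA1, which is known to restrain neutrophils, went the same way with 1866.68 and 1795.82 FPKM against 630.45 and 615.52 FPKM (1.55), as did the chemokine CCL20 (1.10). The CCL20 call was lost with a pseudocount of 0.1 and an eBayes trend together (limma adjusted p = 0.0027). So the genes called in this list include a factor known to act against recruitment.

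**Figure D5:**
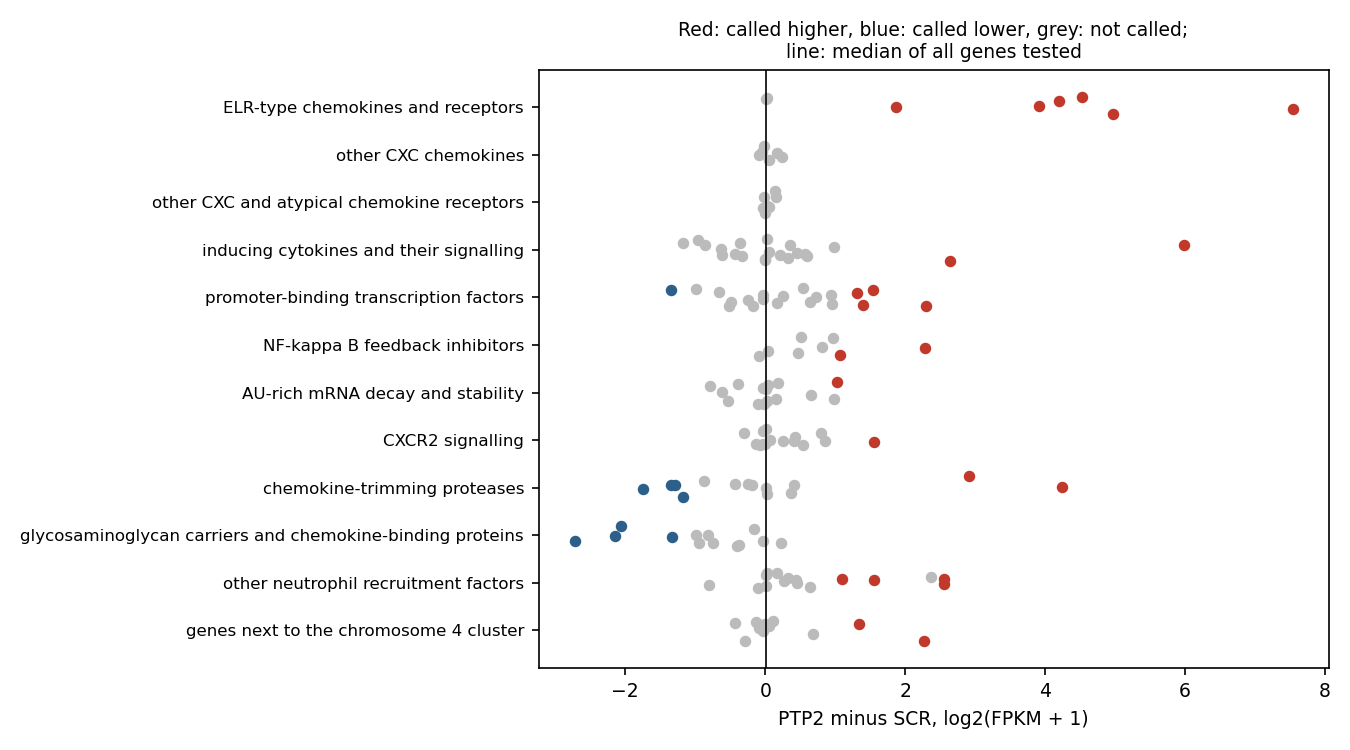
PTP2 minus SCR difference of log2(FPKM + 1) for the 8 members with a value and for every tested gene of the lists. Called genes are in red (higher) and blue (lower), others in grey, and the median of all genes is a line at 0.01. IL1B at 5.99 and MMP1 at 4.24 reach the range of the chemokines, and the carriers lie mostly to the left with a median of -0.82.

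The genes whose levels over the 4 libraries lay nearest to each member were found by Euclidean distance in log2(FPKM + 1), among all genes that are not members. For CXCL3 the nearest was IL13RA2, a decoy receptor of interleukin-13, at a distance of 0.19, with 113.35 and 111.12 FPKM against 2.98 and 2.56 FPKM. The next were PI3, the elastase inhibitor elafin (0.82), and PTGS2, the inducible cyclooxygenase (1.31). CXCL1 lay nearest to IL24 (0.72), a cytokine of the interleukin-10 family, then DHRS3 (1.14), a retinal reductase, and MMP1 (1.32). CXCL2 lay nearest to ODC1 (1.05), ornithine decarboxylase, PTGS2 (1.16) and MMP3 (1.35), stromelysin. CXCL5 had no gene within a distance of 1. Its nearest were IL36RN (1.11) with 114.84 and 115.45 FPKM against 0.10 and 0.11 FPKM, IL36B (1.82) and PI3 (2.76), the first a receptor antagonist and the second an agonist of the interleukin-36 receptor. CXCL8 lay nearest to NAMPT (1.29), an enzyme of NAD synthesis, then EREG (1.64) and FOSL1 (1.80).

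Markers of other cell types were read beside the chemokines. Of 13 neutrophil markers, 7 had a value and FPR1 alone reached 10 FPKM. The summed level was 4.23 to 5.42 FPKM in the PTP2 libraries and 62.0 to 63.0 FPKM in the SCR libraries, and without a value were MPO, PRTN3, FCGR3B, CSF3R, S100A12 and CAMP. FPR1, a formyl peptide receptor, made up most of this sum, with 2.55 and 4.12 FPKM in the PTP2 libraries against 60.60 and 61.53 FPKM. The other 6 with a value were all under 1 FPKM and had no common direction, and PTPRC, the leukocyte antigen CD45, had 0.82 and 0.86 FPKM against 0.40 and 0.73 FPKM. Of 10 monocyte and microglia markers, 7 had a value, and CD68, a lysosomal protein, made up most of the sum of 345 to 364 FPKM against 237 FPKM, while CD163 and CX3CR1 were under 0.1 FPKM in every library. FCER1G, with 0.91 and 1.12 FPKM against 0.65 and 0.41 FPKM, was on the same side as CD68. So was CD163, with 0.06 and 0.08 FPKM against 0.01 FPKM in both SCR libraries. CSF1R, with 1.96 and 2.17 FPKM against 3.17 and 3.11 FPKM, was on the other side from CD68. So was CD14, with 0.22 and 0.35 FPKM against 0.89 and 0.80 FPKM. LYZ overlapped between the groups at 1.67 to 2.93 FPKM. The growth protocol recorded with the samples names hCMEC/D3, a brain endothelial line, but the endothelial markers summed to 4.03 to 4.57 FPKM in the PTP2 libraries and 4.72 to 4.77 FPKM in the SCR libraries, with CDH5, TIE1 and CLDN5 under 0.1 FPKM. These close sums hold markers of opposite direction. PECAM1 had 1.21 and 1.26 FPKM in the PTP2 libraries against 2.39 and 2.50 FPKM, and VWF 0.06 and 0.05 FPKM against 0.98 and 0.93 FPKM. ERG had 0.68 and 0.94 FPKM against 0.07 in both SCR libraries, KDR 0.87 and 0.85 FPKM against 0.36 and 0.32 FPKM, and TEK 0.97 and 1.08 FPKM against 0.45 and 0.60 FPKM. The epithelial markers summed to 4.22 to 4.40 FPKM and 3.14 to 3.76 FPKM. The part of these other cell types in the chemokine levels was not tested.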

How the data were processed

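RNA of 2 PTP2 and 2 SCR libraries of U87 cells was sequenced single-end (50 bases, BGISEQ-500 instrument). The authors deposited FPKM values rounded to 2 decimals. Per the submitters' processing notes, HISAT2 2.1.0 and hg19 were used, whereas gene positions in the table overlap GENCODE 29 on GRCh38 for 97.2% of 18807 genes. The quantifier is not given in the sources used here. The table also holds the authors' fold changes and p-values, which were not used. Depth was estimated from low values of genes with 1 transcript, of which 63.0% to 67.6% were whole reads (within 0.005 FPKM, up to 5 reads).

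The 16595 genes with a value were tested with limma 3.58.1 (R 4.3.3; lmFit, eBayes) on log2(FPKM + 1) with group as the only term and Benjamini-Hochberg adjustment over all of them. The script was tested on simulated data. The members, lists and markers were chosen with earlier results of these data known. Named are all members, PTPRN, in each list at most the 4 largest called differences with a mean of at least 1 FPKM plus the most abundant gene, every called neighbour, markers at 10 FPKM, and the 3 genes nearest to each member above 10 FPKM. Promoters came from RefSeq (GRCh38.p14) and transcripts from GENCODE 29 (the longest protein-coding one per gene). Alternatives were a pseudocount of 0.1, an eBayes trend, both together, a minimum of 1 FPKM in 2 libraries, median-ratio scaling, quantile normalization, the replicate number as a block, leaving out each library, and motifs on the gene's strand only. Python 3.11.15 was used with numpy 2.4.6, pandas 2.3.3, scipy 1.17.1 and matplotlib 3.10.9.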

Additional observations from a re-analysis of the deposited data

How the results depend on the processing

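With an eBayes trend, the trend with a pseudocount of 0.1, a minimum FPKM, median-ratio scaling or quantile normalization, 1134 to 1289 genes were called against 1111, and the members called higher stayed at 6. With a pseudocount of 0.1 alone 0 genes passed in limma (lowest adjusted p 0.0012), and 10185 had an unadjusted p under 0.05. With the replicate block 0 passed (lowest adjusted p 0.0040), with 10108 at an unadjusted p under 0.05. Same-numbered replicates shared only a number (correlation of their deviations 0.042), so the block is not a pairing. Leaving out each library in turn also gave 0 to 0 calls for all genes, members and every list. Under these settings the counts fell to 0 in each list with a call, while all 27 called list genes kept direction and an adjusted p of at most 0.05 throughout. Counted at an adjusted p of at most 0.05 with no minimum fold, 9603 genes passed. With the pseudocount of 0.1 and the trend together, the NF-kappa B feedback inhibitors had 1 call, the AU-rich decay genes 2 and the recruitment factors 3. The transcription factors had 3 higher and 2 lower. CCL20, NFKBIE and SDC3 lost their calls in this setting (limma adjusted p 0.0027, 0.0011 and 0.0011), and so did FOSB. With median-ratio scaling the decay genes had 0, and with it or a minimum FPKM the inducing cytokines gained 1 lower call. The cause of these changes was not tested. Over the alternatives the log2 differences ran from 4.38 to 5.17 for CXCL1, 4.12 to 4.35 for CXCL2, 4.93 to 5.34 for CXCL3, 7.48 to 10.18 for CXCL5, 3.71 to 3.93 for CXCL8 and 1.80 to 4.78 for PPBP. Those of CXCR2 ran from -0.03 to 0.06 and were negative in 3 of 10. The difference of ACKR2 turned to -0.00016 without SCR replicate 1 and ran up to 0.10 with another library left out. Depth limits CXCL6, CXCR2 and the SCR values of CXCL5 and CXCL1.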

Other observations

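The markers of glioma lines themselves differed between the groups that the chemokines separate. Of 10 such markers, all had a value and 5 reached 10 FPKM. VIM, the intermediate filament vimentin, had 4766.13 and 4564.50 FPKM in the PTP2 libraries against 1997.70 and 1918.05 FPKM in the SCR libraries, and the hyaluronan receptor CD44 had 315.84 and 313.53 FPKM against 151.78 and 151.56 FPKM. TNC, the matrix protein tenascin-C, went the other way with 262.87 and 269.00 FPKM against 683.99 and 689.19 FPKM. So did CHI3L1, a secreted glycoprotein, with 30.96 and 29.74 FPKM against 93.54 and 87.89 FPKM, and the filament protein NES with 3.12 and 3.39 FPKM against 12.96 and 14.24 FPKM. The other 5 markers were low. GFAP, SOX2 and S100B were under 1 FPKM in every library, with GFAP at 0.22 and 0.11 FPKM against 0.55 and 0.45 FPKM and SOX2 at 0.05 and 0.14 FPKM against 0.27 and 0.18 FPKM. OLIG2, a factor of the oligodendrocyte lineage, had 1.15 and 0.91 FPKM against 0.54 and 0.50 FPKM, and FABP7, a fatty acid binding protein of radial glia, 1.61 and 1.15 FPKM against 0.23 and 0.49 FPKM.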
